A study of Mus musculus with 12 samples.

Results

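The genes described here encode the machinery that moves proteins into mitochondria and the proteins that hold the folds of the inner membrane, the cristae, in place. They were chosen by symbol, as every gene of the deposited table whose symbol starts with Timm, Tomm or Chchd followed by a digit, together with Samm50, Immt, Pmpca and Pmpcb. This gave 37 of 19036 genes, of which 35 passed a filter on low values and were tested.

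Whole kidneys of C57BL/6 mice were profiled by RNA sequencing, 4 libraries per group, labelled as biological replicates. Vehicle mice received saline by intraperitoneal injection. Cisplatin mice received 25 mg/kg of cisplatin, a platinum drug that injures the renal tubule, and were killed 72 h later. Combination mice received the same dose and time with 84-B10 at 15 mg/kg, a compound known here only by its code, started 48 h before cisplatin. The protocol text and the design text differ on whether the cisplatin group also had the 84-B10 pretreatment, so each library was placed by its treatment label. Age and sex of the mice were not stated in the labels, and no group with 84-B10 alone was analysed. Estimated counts totalled 15.76 to 18.17 M per library in the 10 libraries with a usable count column, and FPKM (fragments per kilobase of transcript, scaled to library size by the authors) covered all 12.

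Nearly all mitochondrial proteins are made in the cytosol. They enter through the TOM complex of the outer membrane and are then passed on: proteins with a cleavable presequence go through TIM23 and lose that presequence to the matrix processing peptidase, metabolite carriers are escorted by small TIM chaperones to TIM22, and small cysteine-rich proteins are trapped by the MIA pathway in the space between the membranes. The SAM and MICOS complexes, of which Samm50 and Immt are the cores, bridge the membranes and hold cristae junctions open. Proximal tubule cells, which make up most of the kidney cortex, are packed with mitochondria.

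Cisplatin kidneys held less RNA of the catalytic subunit of the processing peptidase, of 3 of the 4 sorting and cristae genes, of the small TIM gene Timm9 and of Chchd10, and more RNA of Chchd1 and Tomm34. Pmpcb fell to a mean of 68.1 from 157.7 FPKM, and Chchd1 rose to 57.7 from 32.8 FPKM. For 9 of 12 pairs of paralogs or partners, the ratio of the genes within a library did not overlap between these groups, but 71.6% of single genes did not overlap either, and none of the ratios passed after adjustment (exact permutation test, adjusted p = 0.0541 for each of the 9). No ratio could have passed alone, since the smallest possible p of this test is 0.0286 before adjustment over 36 tests. None of the 35 genes was called different between the combination and the cisplatin group, where 2.21% of all genes were called, so a count of 0 is near the background.

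Promoter sequences are shown for 6 members whose changes are described first, since 4 of them encode partners: the peptidase subunits Pmpca and Pmpcb, which both fell but by different amounts, and the chaperones Timm9 and Timm10, of which the first fell and the second rose in FPKM as deposited. Immt and Chchd1 are the cristae core gene and the member with the largest rise. Each is the reference sequence from RefSeq, build GRCm38.p6, 250 bases before to 30 after the annotated start, written 5′ to 3′ along the gene's strand. Capitals mark matches, on either strand, to an ETS core (CCGGAAG), an E-box (CACGTG), an NRF1 site (GCGCANGCG) or a GC box of Sp1 (GGGCGG), the kinds of site by which many nuclear genes of mitochondrial proteins are known to be driven.
Pmpca (chr2:26389098-26389377, plus strand): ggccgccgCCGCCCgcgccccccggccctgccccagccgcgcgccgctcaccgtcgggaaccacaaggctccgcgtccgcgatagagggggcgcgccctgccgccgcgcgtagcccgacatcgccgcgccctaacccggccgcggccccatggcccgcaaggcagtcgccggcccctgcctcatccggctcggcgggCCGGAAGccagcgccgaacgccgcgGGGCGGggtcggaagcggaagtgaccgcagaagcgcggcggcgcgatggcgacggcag
Pmpcb (chr5:21736910-21737189, plus strand): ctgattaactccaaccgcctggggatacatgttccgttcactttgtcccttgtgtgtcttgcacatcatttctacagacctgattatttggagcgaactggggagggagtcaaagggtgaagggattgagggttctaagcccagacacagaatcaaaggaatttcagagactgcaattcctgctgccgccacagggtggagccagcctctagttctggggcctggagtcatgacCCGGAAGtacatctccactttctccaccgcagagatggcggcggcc
Timm9 (chr12:71136646-71136925, minus strand): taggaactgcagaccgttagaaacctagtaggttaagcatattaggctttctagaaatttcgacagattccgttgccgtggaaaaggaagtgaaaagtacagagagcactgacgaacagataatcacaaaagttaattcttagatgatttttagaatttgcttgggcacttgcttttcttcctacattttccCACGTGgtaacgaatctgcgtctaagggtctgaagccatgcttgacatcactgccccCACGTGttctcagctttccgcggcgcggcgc
Timm10 (chr2:84826771-84827050, plus strand): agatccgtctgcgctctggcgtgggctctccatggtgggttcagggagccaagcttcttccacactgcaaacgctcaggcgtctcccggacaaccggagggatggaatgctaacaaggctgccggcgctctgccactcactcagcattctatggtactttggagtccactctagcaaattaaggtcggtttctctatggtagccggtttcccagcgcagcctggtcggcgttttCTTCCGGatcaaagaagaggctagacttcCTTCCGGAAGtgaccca
Immt (chr6:71831070-71831349, plus strand): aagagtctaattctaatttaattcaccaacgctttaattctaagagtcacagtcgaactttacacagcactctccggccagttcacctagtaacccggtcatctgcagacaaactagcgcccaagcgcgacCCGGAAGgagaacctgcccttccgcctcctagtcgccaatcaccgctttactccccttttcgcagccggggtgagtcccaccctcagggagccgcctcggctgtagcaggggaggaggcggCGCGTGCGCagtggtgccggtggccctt
Chchd1 (chr14:20702777-20703056, plus strand): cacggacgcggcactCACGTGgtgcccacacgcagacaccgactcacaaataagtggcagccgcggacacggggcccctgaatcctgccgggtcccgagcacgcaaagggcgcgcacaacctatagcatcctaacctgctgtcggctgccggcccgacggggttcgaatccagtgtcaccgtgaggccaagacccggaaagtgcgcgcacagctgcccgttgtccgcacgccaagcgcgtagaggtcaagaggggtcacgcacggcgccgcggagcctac

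In these windows Pmpca, Pmpcb, Timm10 and Immt hold the ETS core, Immt also the NRF1 site, Pmpca also the GC box, and Timm9 and Chchd1 the E-box. Over the 32 members with a RefSeq promoter entry, 13 (40.6%) hold the ETS core, against 8.45% of 32851 promoter windows of the same length. Members are counted per gene, over 34 windows, and the background per window, so these shares differ in unit. The NRF1 site is in 5 members (15.6% against 6%), the E-box in 6 (18.8% against 6.79%), the GC box in 13 (40.6% against 34.7%) and the YY1 core, AANATGGC, in 3 (9.38% against 5.22%). No member window holds the C/EBP-ATF element searched, TGATGNAAT, which is in 0.919% of all windows. In the CTTCCGGAAG run of Timm10, 2 ETS matches on opposite strands overlap. The ETS core is in 7 of 14 members called higher after cisplatin and in 4 of the 8 members called lower that had a window. These matches are a description of letters, not of bound sites.

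In vehicle kidneys the members spanned a wide range of FPKM, a value per transcript length. Chchd10 was highest, at a mean of 478 FPKM, followed by Chchd2 at 372, Pmpcb at 158 and Immt at 145, and each of the first 3 stood above the next in every vehicle library. Immt, Tomm6 and Chchd3 (145, 141 and 136 FPKM) overlapped with their neighbours in that order, while Timm23 (116) stood apart from Chchd3 above it and Timm8b (107) below it. Timm22 was lowest of those tested, at 7.61 FPKM. Timm8a2 and Tomm20l, whose products are paralogs of Timm8a1 and Tomm20, were not tested: Timm8a2 stood between 0 and 0.19 FPKM and Tomm20l between 0.11 and 1.23 FPKM over all libraries. Estimated counts of the tested members with low counts were 105 to 272 for Chchd6, 212 to 400 for Timm10, 222 to 458 for Chchd5, 244 to 499 for Timm9 and 267 to 667 for Chchd1.

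Cisplatin was compared with vehicle to ask what the drug did to these genes. A gene was called where limma gave a Benjamini-Hochberg adjusted p under 0.05 over all 12428 genes tested. Of the 35 members, 14 were called higher (40% of members, against 56.3% of all genes), 10 lower (28.6%, against 21.8%) and 11 were not called, while 78.1% of all genes were called in either direction. The groups did not overlap for 11 members that were higher and 10 that were lower, against 52% and 19.6% of all genes, and 71.6% in both directions together. The median log2 fold change was 0.02 for members and 0.26 for all genes, so the share of members called lies close to the background and their median lies below that of all genes.

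That general upward shift depends on scaling. With median-of-ratios scaling the median of all genes moved to 0.01 and that of the members to -0.27, a shift of over 0.1, and the calls became 2 higher and 20 lower among members, against 37.3% and 36.9% of all genes. Quantile normalization gave 8 higher and 15 lower (34.5% and 38.5% of all genes), and rescaling to TPM 17 and 8 (58.1% and 18.8%). On estimated counts of 10 libraries, edgeR called 5 higher and 17 lower (34.4% and 32.1% of all genes), and DESeq2 3 and 17 (27.6% and 26.4%). Chchd1 and Tomm34 were called higher, and Pmpcb, Chchd6, Timm9, Chchd10, Immt, Timm21, Chchd3 and Tomm40l lower, with the FPKM as deposited and under each of these 5 alternatives. Of the other 12 members called higher with the FPKM as deposited, 9 turned sign under at least one of the 5, and Timm23 and Tomm70a were then called lower. Of the members not called with the FPKM as deposited, Chchd2, Chchd7, Samm50, Timm29, Timm44, Timm50, Timm8a1 and Tomm7 were called lower with median-of-ratios scaling.

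**Figure D1:**
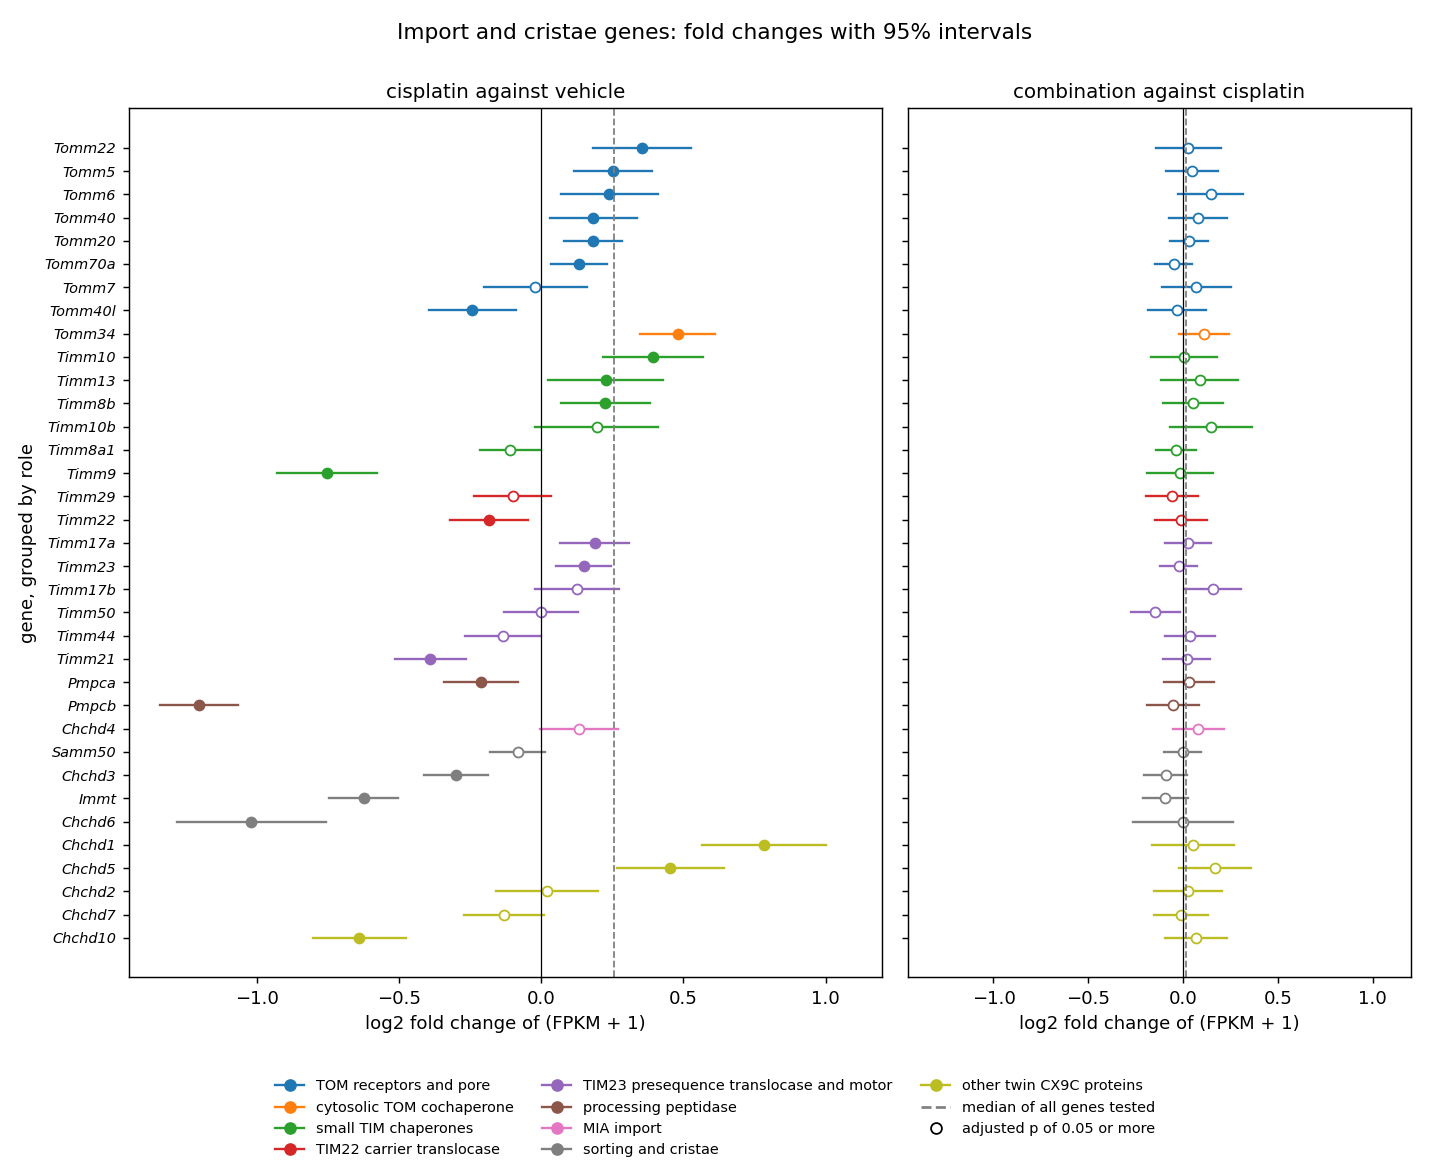
Log2 fold change of FPKM + 1 for the 35 tested members, grouped by role, in cisplatin against vehicle (left) and combination against cisplatin (right); points are limma estimates over 4 libraries per group, bars are 95% intervals, filled points have an adjusted p under 0.05 and the dashed line is the median of all 12428 genes. On the left the points run from -1.20 (Pmpcb) to 0.78 (Chchd1); on the right all are open and lie between -0.15 and 0.17.

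The outer membrane gate, the role with the most genes tested, had the most members called higher. Of 8 tested TOM genes 6 were called higher (75%, against 56.3% of all genes), 1 lower (12.5%, against 21.8%) and 1 not. Their median log2 fold change was 0.18. The counts of the other roles below stand beside the same shares of all genes. Of the 6 TOM genes called higher, 5 turned sign under another scaling (Tomm20, Tomm40, Tomm5, Tomm6 and Tomm70a). With median-of-ratios scaling no TOM gene was called higher and 3 were called lower. The summed FPKM of the TOM genes ran from 410.1 to 428.4 in vehicle libraries, 445.1 to 533.3 in cisplatin libraries and 482.4 to 528.5 in combination libraries.

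Tomm22 (NCBI gene 223696), the central receptor that joins the other receptors to the pore, stood at 53.2, 53.1, 47.7 and 52.1 FPKM in vehicle libraries 1 to 4, 58.2, 63.1, 75.98 and 68.1 in cisplatin and 70.6, 73.8, 63.5 and 62.2 in combination libraries. All 8 treated libraries lay above all vehicle libraries (log2 fold change 0.35, SE 0.08, adjusted p = 0.00114). Tomm20, the main receptor for presequences, stood at 37.8, 35.9, 34.98 and 37.7 FPKM in vehicle libraries 1 to 4, 41, 39.2, 43.6 and 42.8 in cisplatin and 43.97, 42.1, 41.4 and 42.7 in combination libraries, and the groups did not overlap (log2 fold change 0.18, SE 0.05, adjusted p = 0.00313). Tomm70a, the receptor for carrier precursors handed over by cytosolic chaperones, stood at 24.04, 24.3, 23.2 and 23.6 FPKM in vehicle libraries 1 to 4, 27.7, 26.8, 24.6 and 25.7 in cisplatin and 25.5, 25.6, 24.5 and 25.5 in combination libraries. Its cisplatin libraries lay just above the vehicle libraries (log2 fold change 0.13, SE 0.05, adjusted p = 0.0154), and the change became -0.15 with median-of-ratios scaling and -0.18 with edgeR, both called lower.

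Tomm40 forms the pore itself. It stood at 39.2, 46.7, 38.9 and 44.6 FPKM in vehicle libraries 1 to 4, 45.5, 44.7, 50.7 and 51.8 in cisplatin and 54.3, 51.6, 48.8 and 48.7 in combination libraries, and its cisplatin libraries overlapped the vehicle libraries, since vehicle library 2 lay above cisplatin libraries 1 and 2 (log2 fold change 0.18, SE 0.07, adjusted p = 0.03). Its call was lost when vehicle library 1 or 3 or cisplatin library 3 or 4 was left out, with log2 fold changes of 0.15, 0.15, 0.16 and 0.15. Tomm40l, a paralog of the pore gene, went the other way, at 14.5, 13.1, 13.5 and 12.4 FPKM in vehicle libraries 1 to 4, 11.7, 9.93, 11.9 and 11.2 in cisplatin and 11.5, 11.2, 11.4 and 9.67 in combination libraries. Every treated library lay below every vehicle library (log2 fold change -0.24, SE 0.07, adjusted p = 0.00638). The small subunits Tomm5 and Tomm6 had log2 fold changes of 0.25 and 0.24 and Tomm7 of -0.02 (adjusted p = 0.834).

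Tomm34 (NCBI gene 67145), a cytosolic cochaperone that holds precursors on Hsp70 and Hsp90, stood at 11.9, 13.3, 12.7 and 11.6 FPKM in vehicle libraries 1 to 4, 16.1, 17.2, 18.8 and 18.6 in cisplatin and 18.2, 19.9, 19.9 and 18.6 in combination libraries. Its lowest treated library was well above its highest vehicle library (log2 fold change 0.48, SE 0.06, adjusted p = 7.23e-06), and the combination mean was 19.1 ± 0.856 FPKM against 12.4 ± 0.754 in vehicle kidneys (SD, n = 4).

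Among the small TIM chaperones, 3 of 6 tested genes were called higher, 1 lower and 2 not, and Timm13 and Timm8b of the 3 turned sign with median-of-ratios scaling. Timm9 and Timm10 encode the partners of the ring-shaped chaperone that carries hydrophobic precursors across the space between the membranes, and they moved apart. Timm9 (NCBI gene 30056) stood at 32.4, 34.7, 35.6 and 30.1 FPKM in vehicle libraries 1 to 4, 18, 17.5, 22.1 and 19.7 in cisplatin and 20.8, 20.1, 18.4 and 17.01 in combination libraries. All treated libraries lay far below the vehicle libraries (log2 fold change -0.75, SE 0.08, adjusted p = 1.54e-06). Timm10 (NCBI gene 30059) stood at 21.8, 24.6, 24.1 and 26 FPKM in vehicle libraries 1 to 4, 29.2, 29.7, 36.6 and 32.9 in cisplatin and 30.6, 33.4, 35.5 and 29.2 in combination libraries, with every treated library above every vehicle library (log2 fold change 0.39, SE 0.08, adjusted p = 0.000551). The call of Timm10 was lost with median-of-ratios scaling (0.11), quantile normalization (0.19) and DESeq2 (0.25). Timm9 exons overlap those of Tomm20l on the other strand, and Tomm20l stood at no more than 1.23 FPKM.

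Timm8a1 encodes the chaperone subunit linked to human deafness-dystonia syndrome, and Timm8b its close paralog. Timm8a1 stood at 33.8, 32.98, 31.3 and 32.6 FPKM in vehicle libraries 1 to 4, 28.96, 29.3, 31.6 and 31.1 in cisplatin and 28.6, 31.6, 28.5 and 29.04 in combination libraries and was not called (log2 fold change -0.11, SE 0.05, adjusted p = 0.0603), though it was called without vehicle library 3, cisplatin library 3 or combination library 2 (-0.13, -0.13 and -0.11). Timm8b stood at 103, 113, 106 and 107 FPKM in vehicle libraries 1 to 4, 113, 114, 144 and 134 in cisplatin and 131, 128, 136 and 125 in combination libraries (log2 fold change 0.23, SE 0.07, adjusted p = 0.0119), with vehicle library 2 just under the cisplatin libraries. Timm10b, which sits with the TIM22 complex, stood at 26.5, 27.4, 23.3 and 27.2 FPKM in vehicle libraries 1 to 4, 29.3, 24.7, 34.1 and 32.5 in cisplatin and 36.3, 32.7, 36.2 and 28.4 in combination libraries; its groups overlapped and it was not called (log2 fold change 0.19, SE 0.10, adjusted p = 0.0897), though without cisplatin library 2 it was called at 0.28. Timm13, the partner of the Timm8 proteins, had a log2 fold change of 0.23 (adjusted p = 0.0392). That call was lost without vehicle library 1, 3 or 4 or cisplatin library 3 or 4, with log2 fold changes of 0.19, 0.22, 0.23, 0.17 and 0.20.

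Of the genes of the carrier translocase, 1 was called lower and 1 was not called. Timm22, its channel-forming subunit, stood at 8.10, 7.62, 6.78 and 7.95 FPKM in vehicle libraries 1 to 4, 6.11, 6.61, 6.96 and 6.60 in cisplatin and 6.73, 6.91, 6.40 and 6.04 in combination libraries. Cisplatin libraries lay mostly below vehicle libraries and the groups overlapped (log2 fold change -0.18, SE 0.06, adjusted p = 0.0166), and the call was lost without vehicle library 1 or cisplatin library 1 (-0.16 and -0.15). Rescaling to TPM also ended the call of Timm22 (-0.15, limma adjusted p = 0.0624). Timm29, a subunit known from animal cells, had a log2 fold change of -0.10 (adjusted p = 0.157).

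In the presequence translocase, 2 of 6 genes were called higher, 1 lower and 3 not, and both that were called higher, Timm23 and Timm17a, turned sign under another scaling. Timm23, the core of the channel, stood at 115, 120.4, 114 and 114 FPKM in vehicle libraries 1 to 4, 129, 123, 134 and 129.7 in cisplatin and 130, 129, 124 and 123 in combination libraries. Cisplatin libraries were all above vehicle libraries in FPKM (log2 fold change 0.15, SE 0.04, adjusted p = 0.00763), and the change was -0.14 and called lower with median-of-ratios scaling. Timm17a, which pairs with Timm23 in the channel, stood at 89.1, 89.4, 80.1 and 85.8 FPKM in vehicle libraries 1 to 4, 93.04, 92.8, 102 and 105 in cisplatin and 105, 101, 98.7 and 96.5 in combination libraries, again with no overlap (log2 fold change 0.19, SE 0.06, adjusted p = 0.00743).

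Timm17b, its paralog, stood at 20, 20.2, 19.6 and 21.4 FPKM in vehicle libraries 1 to 4, 19.99, 22.5, 23.6 and 23.1 in cisplatin and 22.3, 26.03, 27.6 and 23.9 in combination libraries, with overlapping groups (log2 fold change 0.13, SE 0.07, adjusted p = 0.111), and was called without cisplatin library 1 (0.17). Timm50, the presequence receptor of the inner membrane, stood at 44.7, 47.2, 46.6 and 45.4 FPKM in vehicle libraries 1 to 4, 45.2, 42.9, 46.7 and 49.1 in cisplatin and 45.7, 42.8, 38.4 and 39.1 in combination libraries, with overlap and a log2 fold change of -0.001 (95% interval -0.13 to 0.13) in FPKM as deposited. Its change was -0.29 with median-of-ratios scaling, -0.19 with edgeR and -0.20 with DESeq2, each called lower. Timm44 tethers the mitochondrial Hsp70 motor to the channel. It stood at 37.3, 37.97, 37.1 and 35.8 FPKM in vehicle libraries 1 to 4, 31.6, 31.2, 37.9 and 34.3 in cisplatin and 34.1, 37.2, 33.2 and 34.1 in combination libraries; cisplatin library 3 was as high as the vehicle libraries and the other 3 were below them (log2 fold change -0.13, SE 0.06, adjusted p = 0.0596). Without cisplatin library 3 the change of Timm44 was -0.19 and was called (adjusted p = 0.00615). Timm21, which links incoming proteins to respiratory chain assembly, had means of 10.8 ± 0.742, 8.03 ± 0.332 and 8.15 ± 0.406 FPKM in vehicle, cisplatin and combination kidneys (log2 fold change -0.39, SE 0.06, adjusted p = 3.05e-05).

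The sharpest fall of all members was in the processing peptidase, an enzyme of 2 different subunits that cuts presequences off in the matrix. Pmpcb (NCBI gene 73078), the zinc-binding catalytic subunit, stood at 154, 159, 162 and 156 FPKM in vehicle libraries 1 to 4, 75.9, 62.4, 67.8 and 66.4 in cisplatin and 70.98, 59.7, 65.3 and 66.2 in combination libraries. Its highest treated library, at 75.85 FPKM, lay far below its lowest vehicle library, at 154.25 FPKM (log2 fold change -1.20, SE 0.06, adjusted p = 1.37e-09). Pmpca (NCBI gene 66865), the subunit that helps bind the substrate, stood at 33.7, 34.4, 34.3 and 34.4 FPKM in vehicle libraries 1 to 4, 32.6, 29.1, 27.5 and 28.7 in cisplatin and 31.97, 27.7, 28.99 and 31.8 in combination libraries, also lower in every treated library but by a smaller step (log2 fold change -0.21, SE 0.06, adjusted p = 0.00547). The call of Pmpca was lost with rescaling to TPM (-0.16, limma adjusted p = 0.0639), also in combination against vehicle (-0.15, adjusted p = 0.0851).

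The cristae and sorting genes had no member called higher: 3 of 4 were called lower and 1 was not, with a median log2 fold change of -0.46, and all 4 were called lower with median-of-ratios scaling and with edgeR. Immt (NCBI gene 76614), the core of MICOS, stood at 145, 141, 147 and 148 FPKM in vehicle libraries 1 to 4, 101, 93.8, 94.4 and 86.5 in cisplatin and 92.7, 84.9, 82.9 and 91.6 in combination libraries, so that treated kidneys lay in a separate, lower range (log2 fold change -0.62, SE 0.06, adjusted p = 2.24e-07). Chchd6 (NCBI gene 66098) encodes a smaller MICOS subunit, and stood at 12.8, 13.7, 13.6 and 15.3 FPKM in vehicle libraries 1 to 4, 7.49, 4.95, 7.85 and 5.37 in cisplatin and 7.41, 5.98, 6.29 and 5.63 in combination libraries. The highest treated library stood at 7.85 FPKM and the lowest vehicle library at 12.76 FPKM (log2 fold change -1.02, SE 0.12, adjusted p = 3.95e-06).

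Chchd3, the paralog and fellow subunit of Chchd6, stood at 134, 133, 137 and 140.1 FPKM in vehicle libraries 1 to 4, 111, 100.3, 119 and 112 in cisplatin and 105, 101, 107 and 102 in combination libraries. Groups did not overlap, but the step was smaller than for Chchd6 (log2 fold change -0.30, SE 0.05, adjusted p = 0.000143). Samm50, which inserts barrel proteins into the outer membrane and anchors MICOS to it, stood at 44.4, 45, 44.9 and 47.9 FPKM in vehicle libraries 1 to 4, 43.5, 40.4, 43.9 and 43.96 in cisplatin and 43.6, 43.1, 41.6 and 43.3 in combination libraries. Its cisplatin libraries lay just below its vehicle libraries, and the change did not pass (log2 fold change -0.08, SE 0.04, adjusted p = 0.103).

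Chchd4 is the import receptor and oxidase of the MIA pathway, which gives incoming proteins their disulfide bonds. It stood at 21.2, 23.7, 21.6 and 20.4 FPKM in vehicle libraries 1 to 4, 23.8, 21.7, 25.1 and 24.97 in cisplatin and 26.5, 25.95, 25.5 and 23.2 in combination libraries, with overlapping groups, and was not called (log2 fold change 0.13, SE 0.06, adjusted p = 0.0688). Without vehicle library 2 or cisplatin library 2 its change was 0.17 and 0.18 and was called. The other Chchd proteins carry the paired cysteine motifs that this pathway oxidises.

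Chchd1 (NCBI gene 66121), a protein of the small subunit of the mitochondrial ribosome, had the largest rise of the members, at 31.03, 32.9, 34.1 and 33.3 FPKM in vehicle libraries 1 to 4, 49.3, 52.2, 68.9 and 60.3 in cisplatin and 58.9, 61.7, 67.6 and 50.5 in combination libraries. The lowest treated library was 49.3 FPKM and the highest vehicle library 34.1 FPKM (log2 fold change 0.78, SE 0.10, adjusted p = 8.12e-06). Its exons overlap an antisense gene, 6230400D17Rik, and no source used here states whether the libraries kept strand. Chchd5 (NCBI gene 66170) stood at 11.2, 11.8, 13.8 and 13.1 FPKM in vehicle libraries 1 to 4, 14.6, 16.5, 18.8 and 20.1 in cisplatin and 19.02, 19.4, 20.5 and 19.95 in combination libraries (log2 fold change 0.45, SE 0.09, adjusted p = 0.000309), with no overlap, although its call was lost with median-of-ratios scaling and quantile normalization.

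Chchd10 and Chchd2 are paralogs of the space between the membranes, both linked to inherited neurodegeneration in humans. Chchd10 (NCBI gene 103172) stood at 453, 505, 477 and 476 FPKM in vehicle libraries 1 to 4, 306, 267, 354 and 302 in cisplatin and 322, 309, 341 and 313 in combination libraries. Every treated library was lower than every vehicle library (log2 fold change -0.64, SE 0.08, adjusted p = 3.76e-06). Chchd2 stood at 359.6, 373, 368 and 387 FPKM in vehicle libraries 1 to 4, 360.4, 347, 422 and 383 in cisplatin and 423, 404, 394 and 323 in combination libraries, with its treated libraries on both sides of the vehicle range (log2 fold change 0.02, SE 0.08, adjusted p = 0.825). Its change was -0.27 and called lower with median-of-ratios scaling. Chchd7 was not called (log2 fold change -0.13, adjusted p = 0.082). It was called without cisplatin library 3 or 4 (-0.16 and -0.17).

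**Figure D2:**
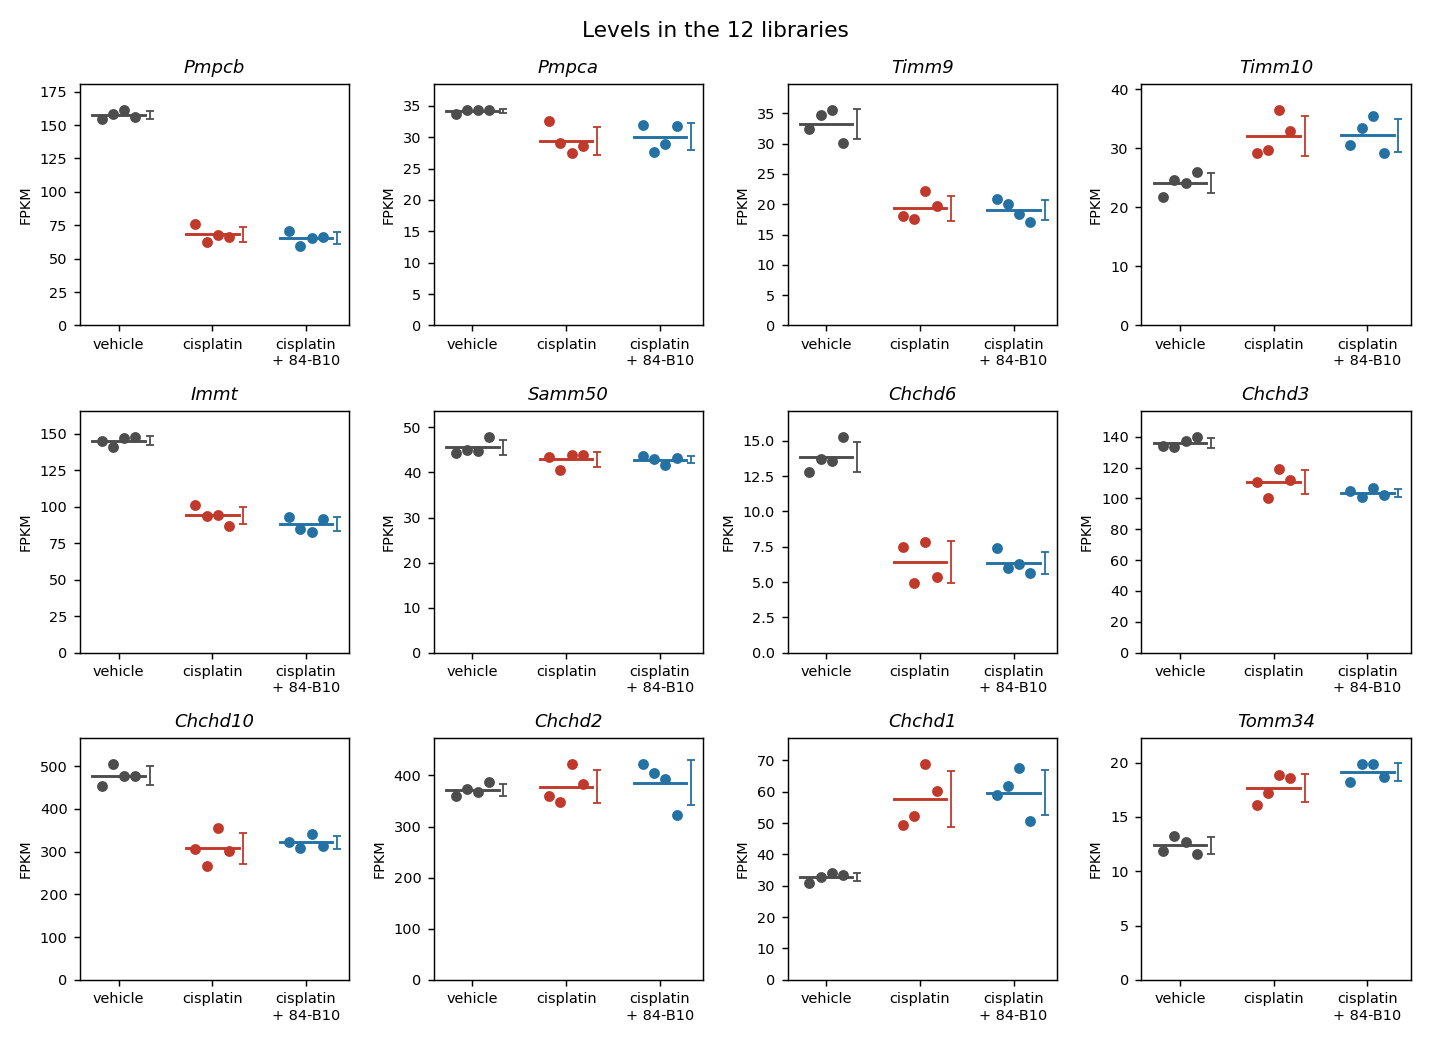
FPKM as deposited in each of the 12 libraries for 12 members, as points, with the group mean as a line and its SD as a bar (n = 4). Pmpcb, Timm9, Immt, Chchd6 and Chchd10 lie lower in both cisplatin groups, Timm10, Chchd1 and Tomm34 higher, and Samm50 and Chchd2 near their vehicle level.

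The ratio of 2 genes within a library does not change with library scaling. For 12 pairs of paralogs or partners the log2 ratio was compared between groups of 4 libraries by a two-sided exact permutation test, whose smallest possible p is 0.0286. For 9 pairs the cisplatin and vehicle libraries did not overlap, each at this smallest p, and none passed after adjustment over the 36 tests (adjusted p = 0.0541 for each). At this smallest p, a ratio could pass only if more of the 36 tests had also reached it. The adjusted p therefore says little about any single pair. Non-overlap was common among single genes too, at 71.6%.

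Per Pmpcb, the amount of Pmpca was 0.218, 0.217, 0.212 and 0.22 in the vehicle libraries, 0.429, 0.466, 0.405 and 0.432 in the cisplatin libraries and 0.45, 0.464, 0.444 and 0.481 in the combination libraries. Vehicle libraries hardly varied, and the subunit ratio rose by 1.00 on the log2 scale. The Timm9/Timm10 ratio was 1.49, 1.41, 1.48 and 1.16 in vehicle libraries and 0.617, 0.59, 0.605 and 0.598 in cisplatin libraries, so that the order of the partners reversed (log2 difference -1.19). Combination libraries gave 0.681, 0.6, 0.52 and 0.582.

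The Chchd2/Chchd10 ratio also crossed 1, from 0.794, 0.738, 0.772 and 0.813 to 1.18, 1.3, 1.19 and 1.27 (log2 difference 0.66). The Chchd3/Chchd6 ratio went from 10.5, 9.72, 10.1 and 9.16 to 14.8, 20.3, 15.2 and 20.9 (0.83), with cisplatin libraries 2 and 4 apart from 1 and 3. Mean ratios of Immt/Samm50 were 3.19 and 2.19 in vehicle and cisplatin kidneys (-0.55), and of Tomm40/Tomm40l 3.18 and 4.33 (0.45). Log2 differences of the Timm22/Timm23, Timm8a1/Timm8b and Timm44/Timm23 ratios were -0.36, -0.34 and -0.29. Ratios of Timm17a/Timm17b, Timm10/Timm10b and Tomm20/Tomm70a overlapped between vehicle and cisplatin (exact p = 0.286, 0.0857 and 0.543).

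**Figure D3:**
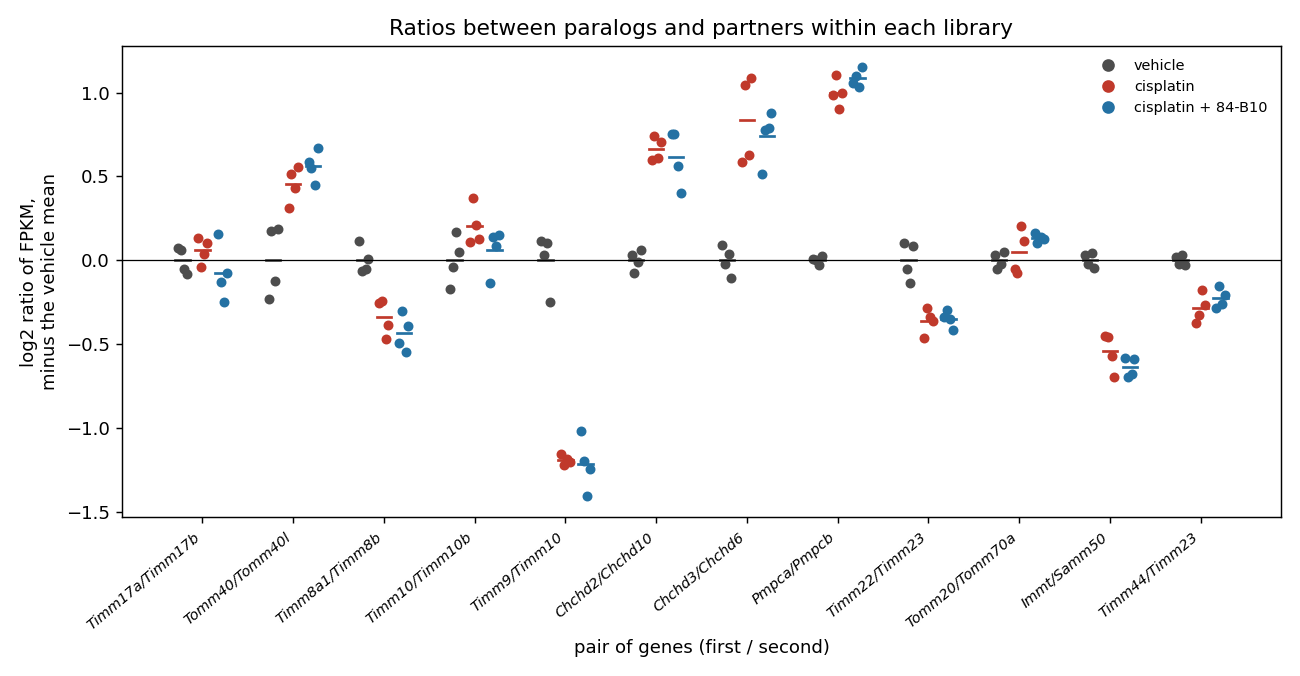
Log2 ratio of FPKM between the genes of 12 pairs in each library, minus the mean of the 4 vehicle libraries; points are libraries and short lines are group means. Timm9/Timm10 lies near -1.19 and Pmpca/Pmpcb near 1.00 in cisplatin libraries, with combination libraries beside them.

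The combination group was compared with the cisplatin group to ask whether 84-B10 moved these genes. None of the 35 members was called by limma (2.21% of all genes were), by edgeR (2.07%) or by DESeq2 (2.98%), and no member's groups stood apart (8.24% of all genes). Log2 fold changes lay between -0.15 and 0.17, and 2 members had an unadjusted limma p under 0.05, Timm50 (-0.15, 95% interval -0.28 to -0.02, adjusted p = 0.275) and Timm17b (0.16, 0.01 to 0.31, adjusted p = 0.313). For the members that changed most after cisplatin the intervals were -0.19 to 0.08 for Pmpcb, -0.21 to 0.03 for Immt, -0.19 to 0.16 for Timm9, -0.26 to 0.26 for Chchd6 and -0.16 to 0.27 for Chchd1. The changes after cisplatin itself, -1.20 for Pmpcb and -1.02 for Chchd6, were larger in size than any value in those intervals. No pair's ratio stood apart between these 2 groups.

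The combination group was also compared with vehicle. This comparison shares its vehicle libraries with cisplatin against vehicle, so the values are set side by side and not counted as further evidence. Here 16 members were called higher (56.6% of all genes were), 13 lower (22.6%) and 6 not, and 79.2% of all genes were called in either direction. Median-of-ratios scaling gave 3 higher and 20 lower (37.6% and 37.3% of all genes), quantile normalization 9 and 17 (35.7% and 38.4%), edgeR 3 and 20 (37.3% and 35.3%) and DESeq2 3 and 20 (30.7% and 29.3%). Pmpcb stood at -1.26 against -1.20 in the comparison of cisplatin with vehicle, Chchd6 at -1.02 in both, Timm9 at -0.77 against -0.75, Immt at -0.72 against -0.62 and Chchd10 at -0.57 against -0.64. Chchd1 stood at 0.84 against 0.78, Tomm34 at 0.59 against 0.48 and Chchd5 at 0.62 against 0.45. The last 3 were called higher under each scaling and count test run.

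**Figure D4:**
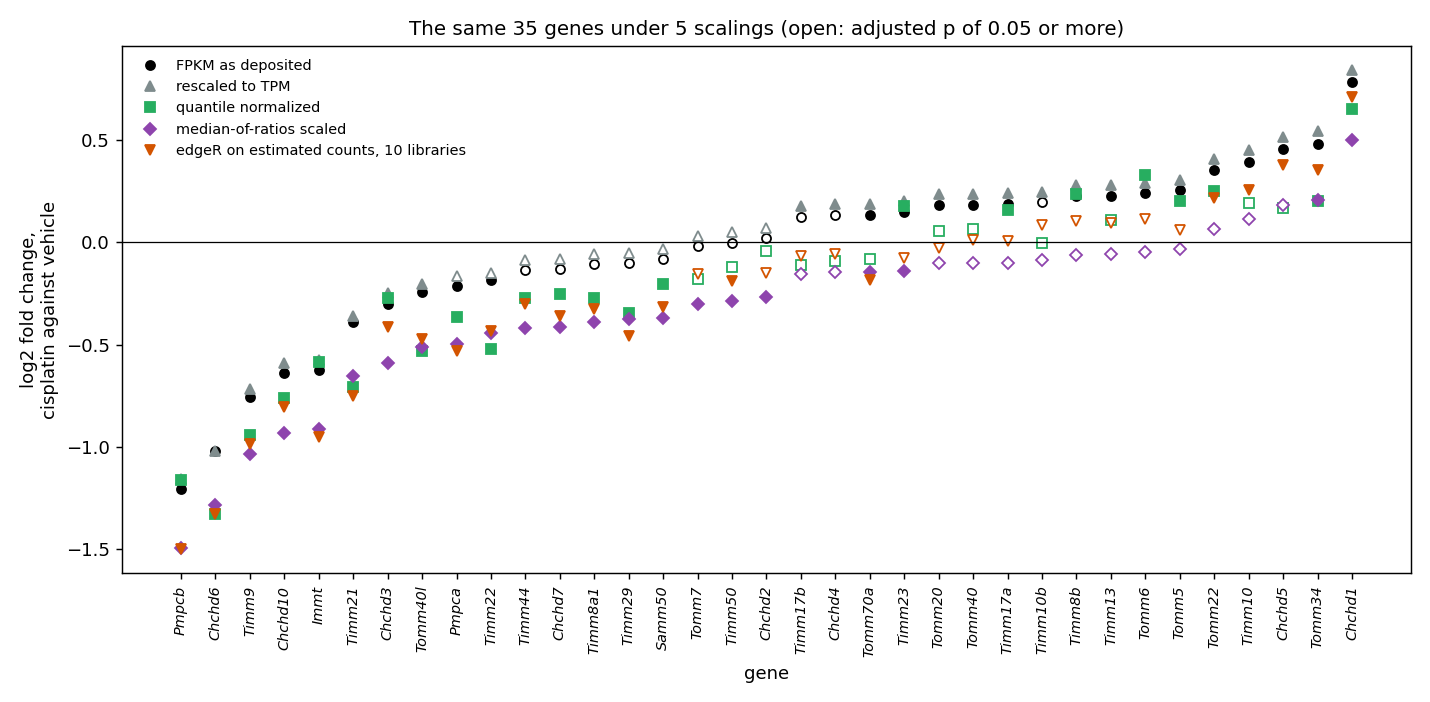
Log2 fold change in cisplatin against vehicle for the 35 tested members, ordered by the value from FPKM as deposited, under 5 ways of scaling; open symbols have an adjusted p of 0.05 or more. Members from Pmpcb to Samm50 stay below 0 throughout, Tomm22, Timm10, Chchd5, Tomm34 and Chchd1 stay above it, and those between change sides. Only Chchd1, Tomm34 and the members from Pmpcb to Tomm40l have filled symbols throughout.

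Genes of the same pathways that lie outside these families were counted from lists of known genes. Beside these counts, 56.3% of all genes were called higher and 21.8% lower after cisplatin, or 37.3% and 36.9% with median-of-ratios scaling. Of 24 further import genes 3 were called higher and 11 lower after cisplatin, with a median log2 fold change of -0.14 (1 and 20 with median-of-ratios scaling). Immp2l, a subunit of the inner membrane peptidase that trims a few proteins of the space between the membranes, was nearly absent from treated kidneys. It stood at 5.49, 5.71, 5.24 and 5.9 FPKM in vehicle libraries, 0.1, 0.15, 0 and 0.1 in cisplatin libraries and 0, 0.1, 0 and 0 in combination libraries. Its estimated counts were 83 to 107 in vehicle libraries and 0 or 1 in each treated library with a count column, so its log2 fold change of -2.60 (SE 0.07, adjusted p = 1.37e-12) depends on the pseudocount. Immp2l passed the filter on low values only through its vehicle libraries, so its test is not independent of that filter.

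Gfer, the oxidase that recharges Chchd4, rose from 12.3 ± 0.497 to 29.5 ± 2.73 FPKM (SD, n = 4; log2 fold change 1.19, SE 0.06, adjusted p = 1.54e-09). Hspd1, the matrix chaperonin that folds imported proteins, fell from 279 ± 18.3 to 127.8 ± 11.1 FPKM (-1.12, adjusted p = 2.30e-08). Hspa9, the Hsp70 of the import motor, stood at 251 ± 7.76 and 236 ± 12.2 FPKM and was not called (-0.09, adjusted p = 0.181).

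Of 14 further cristae genes measured, 2 were called higher and 7 lower, with a median of -0.25 (0 and 12 with median-of-ratios scaling). The MICOS genes Apoo and Apool fell by 0.57 and 0.50 on the log2 scale, and the prohibitin gene Phb fell by 0.54. Atp5l, a subunit of ATP synthase, was the most abundant that was not called (-0.10, adjusted p = 0.322). Of 15 further substrates of the MIA pathway 3 were called higher and 2 lower, with a median of -0.10 (1 and 10 with median-of-ratios scaling). Triap1, a p53 target, rose (0.78), Cmc4 rose (0.41, lost with median-of-ratios scaling) and Coa6, a copper delivery factor of cytochrome oxidase, fell (-0.58), while Cox6b1 was not called (-0.17, adjusted p = 0.113).

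Of 17 tested genes listed for the mitochondrial stress response, 14 were called higher (56.3% of all genes were) and 2 lower (21.8% were). The median log2 fold change was 1.18, and median-of-ratios scaling gave 13 higher and 3 lower. The 2 called lower were Shmt2 (-1.27) and Lonp1 (-0.19). The transcription factor gene Atf3 stood at 0.445 ± 0.266 FPKM in vehicle and 20.0 ± 2.39 in cisplatin kidneys (3.87, adjusted p = 3.08e-12). Its vehicle libraries stood at 0.28 to 0.84 FPKM, so Atf3 passed the filter only through treated libraries and its fold change depends on the pseudocount. The same holds for Trib3 (0.16 to 0.28 FPKM in vehicle libraries), Chac1 (0.12 to 0.53) and Aldh18a1 (0.61 to 0.84). Asns and Mthfd2 also had vehicle libraries under 1 FPKM (lowest 0.78 and 0.86). The count of 14 and the median of 1.18 thus rest in part on genes that entered through the groups where they are high. Gdf15, a secreted stress hormone, stood at 3.75 ± 1.42 and 215 ± 25.5 FPKM (5.54), and Atf5, a regulator of the mitochondrial unfolded protein response in mammals, at 5.99 ± 0.383 and 13.4 ± 0.873 (1.04). Clpp, a matrix protease, was not called (-0.05, adjusted p = 0.496). Hspd1 and Hspe1, counted in the import list, were called lower (-1.12 and -0.84). The name of the list is not a result, and whether its changes reflect stress of mitochondria was not tested. None of the genes in these 4 lists was called in combination against cisplatin.

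Other mitochondrial genes were set beside the members by count alone. Of 90 tested nuclear genes of the respiratory chain 3 were called higher and 49 lower, with a median of -0.22 (1 and 83 with median-of-ratios scaling, 3 and 70 with edgeR). Of 78 mitochondrial ribosomal protein genes 25 were called higher and 24 lower, with a median of 0.05 (6 and 47 with median-of-ratios scaling, 14 and 36 with edgeR), while the members had 14, 10 and 0.02 (2 and 20, and 5 and 17). No test of a difference between these groups was made.

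Cell type markers moved with the comparison, while 56.3% of all genes were called higher and 21.8% lower after cisplatin. All 20 proximal tubule markers were called lower after cisplatin. Their summed FPKM went from 80210 to 88140 in vehicle libraries to 13750 to 19660 in cisplatin libraries and 11540 to 14120 in combination libraries. Kap alone had means of 65090, 10350 and 5776 FPKM in these groups, so this sum largely follows 1 gene. Between combination and cisplatin, 2 of the 20 were called lower and none higher, with a median log2 fold change of 0.13. In that comparison 1.78% of all genes were called lower and 0.435% higher. Of 12 loop and distal tubule markers 10 were called lower (1708 to 1981, 369.9 to 653.7 and 297.8 to 426.9 FPKM). Of 11 tested macrophage and leukocyte markers 8 were called higher and 1 lower (44.96 to 49.38, 158.1 to 201.5 and 183.3 to 220.7 FPKM for the 14 listed), with Adgre1 and Cd3e under 1 FPKM in all libraries. All 6 tested markers of dividing cells were called higher (38.46 to 41.54, 77.44 to 84.8 and 80.72 to 86.09 FPKM for the 10 listed), with Mki67, Ccnb1 and Cdk1 under 1 FPKM in all libraries. Of collecting duct markers 3 of 10 were called higher and 6 lower after cisplatin, of podocyte markers 0 and 3 of 6, and of endothelial markers 3 and 3 of 8. Between combination and cisplatin, 3 of the 12 loop and distal tubule markers were called lower (Slc12a1 -2.40, Umod -1.40 and Cldn19 -0.84) and none higher. Of the 10 collecting duct markers 2 were called higher there (Foxi1 0.44 and Scnn1g 0.25) and none lower. No podocyte, endothelial, leukocyte or dividing cell marker was called between these groups. In whole tissue, fewer cells of a type and less RNA per cell cannot be told apart, and the part of cell makeup in the members' changes was not tested.

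Members also differed in gene span, the distance from start to end of a gene with its introns, a property looked at after the values were seen. Chchd3 and Chchd6 span 269 and 213 kb in GENCODE M21 and Immt 46.1 kb, while Chchd1 spans 1.42 kb. Over the 35 tested members the Spearman correlation of span with the log2 fold change after cisplatin was -0.51, and over 12156 tested genes with a span it was -0.12. The median did not fall between the 20 members under 10 kb (0.07, 25% called lower) and the 13 of 10 to 50 kb (0.13, 23.1%). Both members over 200 kb were called lower, as were 45% of the 491 tested genes of that span, against 19% of the 3039 genes under 10 kb. Immp2l spans 931 kb. Short members were not uniformly higher, since Chchd10 spans 4.62 kb and fell. Genes are not independent replicates, and all points share the same libraries.

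**Figure D5:**
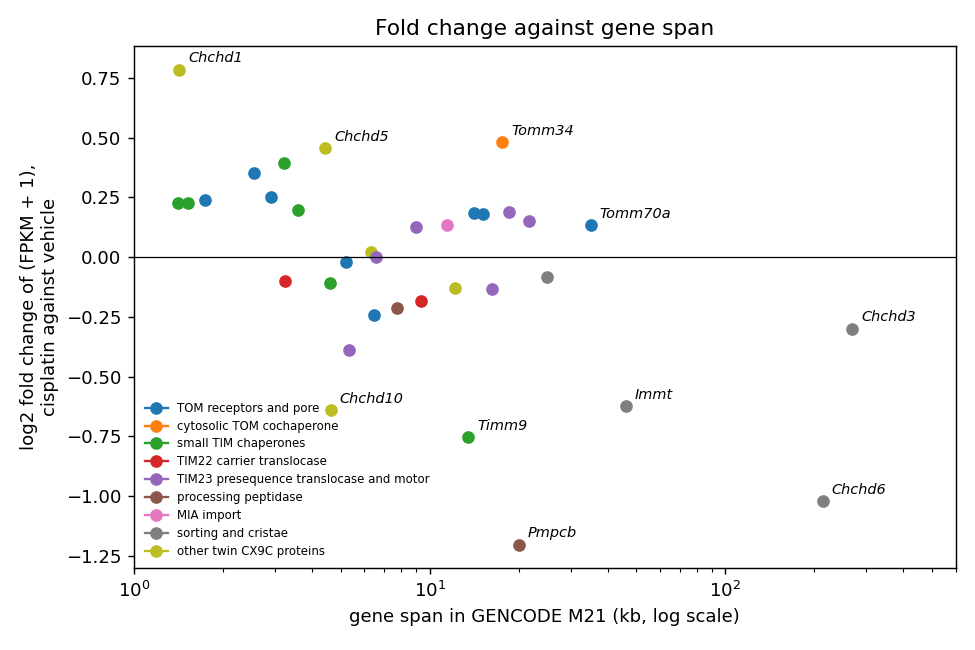
Log2 fold change of FPKM + 1 in cisplatin against vehicle for the 35 tested members, against gene span in kb on a log axis, coloured by role. Chchd3 and Chchd6 lie at 269 and 213 kb with values of -0.30 and -1.02, and Chchd1 at 1.42 kb with 0.78.

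Libraries of one group also differed together across members. Cisplatin library 3 was the highest of its group for 24 of 35 members (68.6%, against 24.9% of all genes) and cisplatin library 2 the highest for 0 and the lowest for 19 (54.3%, against 19.8%). Combination library 4 was the lowest of its group for 18 members (51.4%, against 21.1%). The summed FPKM of all 37 members was 2252, 2158, 2556 and 2380 in cisplatin libraries 1 to 4, 2456, 2416, 2417 and 2243 in combination libraries and 2479 to 2600 in vehicle libraries. Cisplatin library 3 thus lay within the vehicle range and the other 7 treated libraries below it.

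By GENCODE M21, exons of 15 of the 37 members overlap those of a gene on the opposite strand, among them Pmpca (with Inpp5e), Timm9 (with Tomm20l), Chchd10 (with Mmp11 and Gm867), Tomm40l (with Nr1i3) and Tomm70a (with Nit2). Without known strandedness, reads from such pairs cannot be told apart. Estimated counts of close paralogs such as Timm17a and Timm17b rest on the authors' assignment of shared reads.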

How the data were processed

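RNA of whole mouse kidney was sequenced in 12 libraries, 4 each of vehicle, cisplatin and cisplatin with 84-B10, grouped by treatment label. The submitters' processing notes list RSEM 1.2.12, HISAT2 2.0.4 and Bowtie2 2.2.5 with no order. Build, annotation and strandedness: not given in the sources used here. The authors deposited FPKM for 12 libraries together with each gene's estimated count; 34.3% of the counts have decimals. Per the file headers, 10 count columns name a library, and cisplatin libraries 1 and 2 have none here. Another 14 per-sample columns, whose headings are blank or displaced, and 3 columns of the authors' mean TPM were not used. The authors' FPKM are relative to each library's total, so a few very abundant genes can shift all others.

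Values were tested as log2(FPKM + 1), a pseudocount of 1, in R 4.3.3 with limma 3.58.1, in 1 model of 3 group means with a mean trend. A gene entered if 4 or more libraries reached an FPKM of 1, and adjusted p-values are Benjamini-Hochberg over all 12428 genes, two-sided. Fold changes on this scale understate changes of low genes. SE marks the error of a fold change and SD the spread of FPKM. Alternatives were edgeR 4.0.16 (quasi-likelihood) and DESeq2 1.42.0 on rounded estimated counts of 10 libraries, a pseudocount of 0.1, other filters and scalings, array weights, the replicate number as a block, fits of the groups compared alone, and leaving out each library. Ratios of 12 gene pairs were compared with exact permutation tests in Python 3.11.15 (scipy 1.17.1). The limma, edgeR, DESeq2 and ratio steps were checked on simulated data. No 2 libraries had identical FPKM, and counts of same-group libraries differed by more than sampling noise (chi-square per degree of freedom at least 4.34). Replicates are labelled biological, without an animal for each, so a p-value reflects only how far these libraries spread, which may be technical.

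The members, gene lists, marker lists, motifs and pairs were chosen with earlier results of these data known. Values in every library are given for the 5 called members with the largest change each way in cisplatin against vehicle, for a set of core subunits and for both genes of each pair; from each further list the 3 called genes with the largest moderated statistic and the most abundant gene not called are named. Gene span and the order of libraries within a group were looked at after the values were seen. Promoters came from RefSeq (GRCm38.p6), with an entry for 32 of 37 members (none used for Chchd2, Chchd7, Timm21, Tomm7 and Tomm40l), and gene spans and overlaps from GENCODE M21, by symbol, with a span for 97.8% of the genes tested. Coordinates are those of the references, since the build of the deposited values is not known.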

Additional observations from a re-analysis of the deposited data

Results flagged for a closer look

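In 10 of 111 sets of 4 libraries (each of the 37 members in each group), the highest or lowest library stood apart from the other 3 by a gap, relative to the range, above Dixon's 95% critical value for 4 values; chance gives about 1 in 20. None of the 36 sets of pair ratios did. The low libraries were vehicle library 3 for Chchd7 (48.38 FPKM, others 51.23 to 51.51), vehicle library 1 for Pmpca (33.67, others 34.32 to 34.42), cisplatin library 2 for Samm50 (40.44, others 43.51 to 43.96), combination library 4 for Tomm40l (9.67, others 11.18 to 11.45) and combination library 3 for Tomm70a (24.5, others 25.48 to 25.57). The high libraries were combination library 2 for Timm8a1 (31.6 FPKM, others 28.54 to 29.04) and cisplatin library 3 for Tomm5 (99.99, others 85.08 to 87.13). The untested members gave the other 3: Timm8a2 in vehicle library 3 (0.14, others 0 to 0.02) and cisplatin library 1 (0.06, others 0.13), and Tomm20l in combination library 3 (1.23, others 0.4 to 0.52).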

How the results depend on the processing

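Counts of calls moved with scaling. Between cisplatin and vehicle, 14 members were called higher and 10 lower. Median-of-ratios scaling gave 2 and 20, edgeR 5 and 17, DESeq2 3 and 17, and quantile normalization 8 higher. Between the combination and vehicle, 16 were higher and 13 lower. Median-of-ratios scaling gave 3 and 20, edgeR and DESeq2 3 and 20 each, and quantile normalization 9 higher. Leaving out 1 library gave 12 to 16 higher and 9 to 13 lower for cisplatin, and 15 to 16 and 11 to 14 for the combination, and 0 calls between the treated groups under each setting run. For the combination against vehicle, calls were lost without single libraries for Pmpca (combination 2; -0.14), Timm23 (combination 1 or 2; 0.11 and 0.12), Timm29 (vehicle 3 or 4, combination 2 or 3; -0.16 to -0.12) and Timm50 (vehicle 2, 3 or 4, combination 3 or 4; -0.15 to -0.11).

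The values in parentheses are log2 fold changes that turned from above 0 to below 0 for members called with the FPKM as deposited or under the setting named; the cause was not tested. Members called in neither, such as Chchd4, Timm10b and Timm17b after cisplatin, also changed sign and are not listed. Median-of-ratios scaling gave negative values for Chchd2 (-0.27), Timm13 (-0.059), Timm17a (-0.099), Timm23 (-0.14), Timm8b (-0.063), Tomm20 (-0.10), Tomm40 (-0.10), Tomm5 (-0.035), Tomm6 (-0.050), Tomm70a (-0.15) in cisplatin against vehicle. Quantile normalization gave negative values for Tomm70a (-0.080) in cisplatin against vehicle. The edgeR fit gave negative values for Timm23 (-0.079), Tomm20 (-0.026), Tomm70a (-0.18) in cisplatin against vehicle. DESeq2 gave negative values for Timm17a (-0.0079), Timm23 (-0.091), Tomm20 (-0.038), Tomm40 (-0.00035), Tomm70a (-0.20) in cisplatin against vehicle. Median-of-ratios scaling gave negative values for Chchd2 (-0.25), Chchd4 (-0.076), Timm17a (-0.081), Timm17b (-0.0072), Timm23 (-0.17), Timm8b (-0.020), Tomm20 (-0.082), Tomm40 (-0.034), Tomm7 (-0.24), Tomm70a (-0.21) in the combination against vehicle. Quantile normalization gave negative values for Chchd4 (-0.014), Tomm70a (-0.14) in the combination against vehicle. The edgeR fit gave negative values for Chchd2 (-0.23), Chchd4 (-0.066), Timm17a (-0.071), Timm23 (-0.16), Timm8b (-0.0069), Tomm20 (-0.071), Tomm40 (-0.024), Tomm7 (-0.23), Tomm70a (-0.20) in the combination against vehicle. DESeq2 gave negative values for Chchd2 (-0.24), Chchd4 (-0.075), Timm17a (-0.079), Timm23 (-0.17), Timm8b (-0.015), Tomm20 (-0.080), Tomm40 (-0.033), Tomm7 (-0.24), Tomm70a (-0.21) in the combination against vehicle.

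The replicate number as a block gave 13 higher and 10 lower for cisplatin against vehicle (Timm13 was lost, adjusted p = 0.0544), 16 and 12 for the combination against vehicle (Timm50 was lost, adjusted p = 0.06075) and 0 between the treated groups. Correlations of same-numbered libraries ran from -0.238 to 0.561, and 3 of 12 were over 0.1. All 3 lay between cisplatin and combination libraries (0.561, 0.249 and 0.373, with -0.238 for number 4). Differently numbered libraries of these groups ran from -0.56 to 0.335. Same-numbered correlations with vehicle libraries lay between -0.0765 and 0.0791. The numbers were not taken to pair libraries, and whether treated libraries shared handling was not tested. For the pair ratios, leaving out 1 library or pairing by number cannot go below an exact p of 0.0571 or 0.125, so these say nothing about stability. Timm8a2 and Tomm20l fell under the filter on low values and were not tested, and the counts of cisplatin libraries 1 and 2 were not used.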
